A study of Homo sapiens with 288 samples.

Results

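The trophoblast-like cells (TB) described here are single cells differentiated from H1, an established human embryonic stem cell line, in E7 medium (E8 without FGF2) that held 50 ng/ml BMP4 and SB431542, a small-molecule inhibitor of the activin and TGF-beta type I receptors. They were taken by their sample label, which gives 51 TB cells of the 96 cells in the series. The stored, amplified cDNA of each cell was sequenced in 3 experiments, so that 153 of the 288 samples are TB. The 3 experiments (EQ, EQ-75% and EQ-Vary) started from cDNA brought to an equal amount in every cell, and a cell number names the same cell in all of them. Equal volumes were pooled in EQ and EQ-75%, the latter sequenced less deeply, and unequal volumes in EQ-Vary. The main set is the 48 TB cells of EQ that passed the study's limits, a total count of at least 10 to the power 5.4 and at most 31% of the counts in the 50 most abundant genes of the cell. The cells set beside them are endothelial cells (EC), also from H1, grown in E8 with 5 ng/ml BMP4 and 25 ng/ml Activin A for 2 days and then with VEGF and WNT for 3 days, of which 45 were sequenced and 38 passed in EQ. All cells came from 1 line, no separate cultures are named, and the cell type and its culture medium cannot be told apart. Each type in an experiment is therefore 1 sample: values over cells are given as a range, a median or a mean with the SD between cells, the comparison of TB with EC rests on the size of the ratio, and no test was made.

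BMP4 with the activin and FGF signals removed is a widely used way to turn human pluripotent stem cells towards trophoblast, the outer layer of the early embryo that builds the placenta. The AP-2 factors (TFAP2A, TFAP2C) and GATA2 and GATA3 are the transcription factors best known for that lineage, cytotrophoblast is its dividing epithelial form, and the syncytiotrophoblast and the extravillous trophoblast are its hormone-making and invasive forms. Amnion, the epithelium that lines the amniotic cavity, shares many of these genes, and genes such as ISL1, VTCN1 and ITGB6 are used to tell amnion from trophoblast.

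Of the 5 TB markers, VTCN1, ENPEP and GATA3 have a promoter window in the RefSeq table used here. The bases upstream of the start are shown for VTCN1 and ENPEP, which differed most from EC among these, and for the lineage factor HAND1, to give the letters around which motif matches were counted. Lines run 5′ to 3′ on the strand of the gene, capitals mark the match to the AP-2 motif GCCNNNGGC, and coordinates are GRCh38.
VTCN1, chr1:117210961-117211177, minus strand: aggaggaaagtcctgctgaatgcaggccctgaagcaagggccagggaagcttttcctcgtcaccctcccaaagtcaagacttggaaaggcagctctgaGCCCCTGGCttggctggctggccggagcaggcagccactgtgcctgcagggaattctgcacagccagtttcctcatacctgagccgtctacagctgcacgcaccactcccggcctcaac
ENPEP, chr4:110475905-110476154, plus strand: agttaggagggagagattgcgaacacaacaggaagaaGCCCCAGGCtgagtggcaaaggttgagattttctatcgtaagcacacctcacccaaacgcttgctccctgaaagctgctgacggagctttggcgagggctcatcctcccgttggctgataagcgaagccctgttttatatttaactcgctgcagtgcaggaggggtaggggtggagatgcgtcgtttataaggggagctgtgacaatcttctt
HAND1, chr5:154478228-154478477, minus strand: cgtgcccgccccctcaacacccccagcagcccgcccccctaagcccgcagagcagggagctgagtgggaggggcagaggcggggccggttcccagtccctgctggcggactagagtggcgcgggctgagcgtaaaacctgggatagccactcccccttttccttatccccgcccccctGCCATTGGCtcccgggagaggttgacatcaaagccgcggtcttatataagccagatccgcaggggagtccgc
Each of the 3 windows holds 1 match, which begins 152, 213 and 72 bases before the RefSeq start in VTCN1, ENPEP and HAND1. The VTCN1 line stops where a GENCODE exon begins, and the ENPEP window lies in an intron of a longer GENCODE transcript. None of the 3 windows holds the GATA motif AGATAA, the TEAD motif GGAATG or the GRHL motif AACCGGTT on either strand.

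Such matches are common. Over the first listed window of each gene compared between TB and EC below, GCCNNNGGC lay in 27.1% of 7997 windows, against 30.4% of the 881 windows of genes at least 4-fold higher in TB and 22.5% of the 617 windows of genes at least 4-fold lower. The median GC content of the same windows was 64.4%, 66.0% and 64.4%. AGATAA lay in 4.77% of the windows of the higher genes and 7.13% of those of the lower genes, with 4.64% over all genes compared, and GGAATG lay in 12.3%, 11.8% and 9.87%. AACCGGTT was in 2 windows of higher genes, in 0 of lower genes and in 12 of all. Over all 35116 windows of the table, the 4 motifs in the order AP-2, GATA, TEAD and GRHL lay in 19.8%, 9.17%, 11.9% and 0.117%. These shares are descriptions of letters, and the part of GC content in them was not tested.

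The 48 TB libraries held 365570 to 3479240 counts with a median of 1968540, and 7858 to 10425 of the 17492 genes were detected in a cell. TB 4, TB 28 and TB 48 did not pass in EQ, with 45803, 12434 and 8572 rounded counts. TB 7 and TB 9 stood apart: the MTRNR2L genes, short nuclear genes that resemble mitochondrial ribosomal RNA, took 7.57% of the counts of TB 7 and 3.51% of those of TB 9 against a median of 0.967%, and both libraries were among the shallower ones (494175 and 529668 counts). The median correlation of a cell with the other TB cells over 8615 genes was lowest in TB 7, TB 20, TB 9 and TB 40, at 0.425 to 0.466, and highest in TB 21, at 0.571. EC and TB libraries were sequenced 96 to a lane, and genes of each type appear at a low level in the other: over 611 genes of at least 300 CPM in EC the lowest TB mean was 0.109% of the EC mean, and over 558 such genes of TB the lowest EC mean was 0.228% of the TB mean. The part of other libraries in such low levels was not tested, and a level of a few CPM is given below as a value only. The libraries that did not pass were not alike. TB 48 had VTCN1 at 1167 CPM (10 counts) in EQ but at 9.21 CPM in EQ-75%, where it held 1086333 counts, and its 8572 counts of EQ correlated with the mean of the TB cells at 0.574 and with its own deeper library at 0.339. TB 4 had VTCN1 at 524 CPM in EQ and 551 in EQ-75%, and its EQ counts correlated with the mean at 0.640 and with its own deeper library at 0.755.

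The 5 TB markers were present in most TB cells, and all but GATA3 had a mean at least 4-fold above EC. VTCN1 (ENSG00000134258, chr1:117143587-117210960), an inhibitory ligand of the B7 family, was at 140 CPM (counts scaled to a total of 1000000 in each cell) in the lowest cell, 1115 in the median and 2403 in the highest. Every TB cell was above every EC cell, where it ranged from 0.834 to 17.1 CPM, and the mean was 1142 ± 468 CPM (SD between cells, n = 48) against 3.64 in EC, a 314-fold ratio (8.29 on the log2 scale). With the cells that did not pass kept in both types the log2 ratio was 5.57, and those of HAND1, LRP2, LUM, KRT19, ITGB6 and XAGE2, described below, were likewise smaller, at 4.54 to 5.53 in place of 7.40 to 8.74. TB 5 was the lowest cell, and the next lowest was at 509 CPM.

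TFAP2C (ENSG00000087510, chr20:56629306-56639283), the AP-2 gamma transcription factor, ran from 18.9 CPM through a median of 273 to 1842 CPM. Its mean of 388 ± 379 CPM was 13.3-fold above the EC mean of 29.3, and the EC median was 1.06. The groups overlapped: 1 EC cell was at 995 CPM and the next highest at 52.0 CPM, above the 18.9 and 28.1 CPM of the lowest TB cells. ENPEP (ENSG00000138792, chr4:110365733-110565285), a cell-surface aminopeptidase that cleaves angiotensin II, ran from 2.93 CPM through 148 to 935 CPM. It was spread widely, with 41 of 48 cells at 10 CPM or more and a mean 124-fold above EC.

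GATA3 (ENSG00000107485, chr10:8045378-8075198) was at 11.7, 210 and 601 CPM in the lowest, median and highest TB cell. EC cells held it as well, at a mean of 120 CPM with 31 of 38 cells at 10 CPM or more, so the ratio was 1.97 and no TB cell was above every EC cell. KRT7 (ENSG00000135480, chr12:52232520-52252186), a keratin of simple epithelia, was the most uneven marker: 14 TB cells had no count, the median was 6.94 CPM, 23 cells were at 10 CPM or more and TB 16 was highest at 269 CPM. EC held 3 counts of KRT7 in all against 2830 in TB, a ratio of 765 at equal total counts with an exact 95% interval of 262 to 3713 that covers counting error only.

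**Figure D1:**
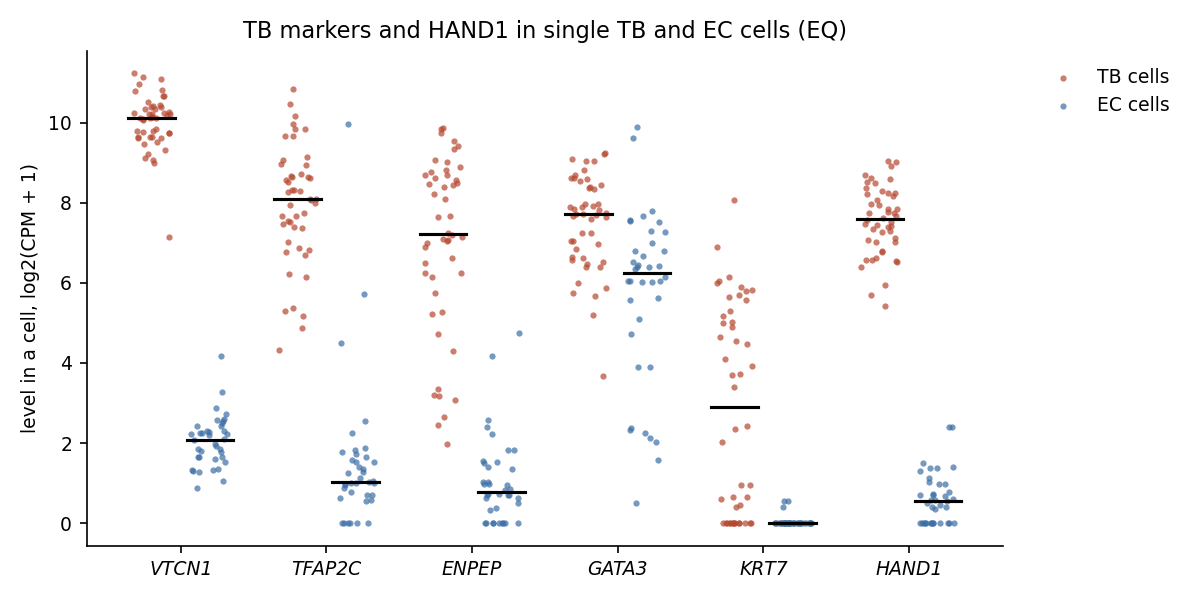
Level of the 5 TB markers and of HAND1 in each passing cell of EQ, as log2(CPM + 1) on the vertical axis. Each point is a cell (48 TB, 38 EC) and the black line is the median of the type; VTCN1 and HAND1 do not overlap between the types, GATA3 does, and KRT7 is at 0 in 14 TB cells.

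Per kb of the GENCODE v44 canonical transcript, which 17431 of the 17492 genes have (MTRNR2L12 and MTRNR2L8 among those without), the 10 highest mean levels in TB were those of translation, iron storage, glycolysis and the cytoskeleton. EEF1A1, the elongation factor that brings aminoacyl-tRNA to the ribosome, led at 6893 CPM per kb, followed by the ribosomal proteins RPS18 (5064) and RPL41 (4515), the ferritin light chain FTL (4500), the tropomyosin TPM1 (4477) and GAPDH (4417). RPS27, ACTB, RPL21P75 and RPS3A made up the rest at 3200 to 3775 CPM per kb. TPM1 alone of these 10 was past 4-fold against EC: its lowest TB cell was at 2747 CPM, its median at 5584 and its highest at 11462, while EC cells reached 254 CPM at most. On the same scale per kb the epithelial keratin KRT18 was at 1363 and the matrix proteoglycan LUM at 1139, both above the marker VTCN1 at 439. GATA3 was at 76.6, ENPEP at 39.1 and KRT7 at 15.5. Many of these genes have near-identical copies elsewhere in the genome, so their levels are uncertain to that extent.

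Of the 17492 genes, 10266 had a mean over both types of at least 5 CPM and were compared. Of these, 1156 (11.3%) were at least 4-fold higher in TB than in EC and 830 (8.08%) were at least 4-fold lower, with a median log2 ratio of 0.04 over all of them. Called means past that fold, since there is 1 sample a type. The shares of 11.3% and 8.08% are those to set beside the counts of each gene list below. With the median over cells (1 CPM added) in place of the mean the split was 1568 higher and 589 lower. The EQ-Vary and EQ-75% libraries, which come from the same cDNA and are no independent samples, called 999 genes higher and 724 lower in all 3 experiments. Complete separation was rare, and 14 genes (0.136%) had every TB cell above every EC cell and 7 had every TB cell below every EC cell.

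The 14 genes that were higher, chosen after their values were seen, are VTCN1, GRHL2, HAND1, LUM, COL3A1, KRT19, LRP2, TPM1, PAPPA2, PTN, CPE, LRRN1, MTUS2 and ADAMTS18. They mix an epithelial factor (GRHL2), matrix (LUM, COL3A1), an endocytic receptor (LRP2) and secreted proteins (PAPPA2, a protease of IGF-binding proteins known from placenta, and PTN, a heparin-binding growth factor). PAPPA2 was at 119 CPM in its lowest TB cell and 3597 in its highest, with at most 21.4 in EC. PTN was at 184 to 3987 CPM, against at most 99.8 in EC.

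The largest ratios among genes of at least 50 CPM in the higher type were those of ADAMTS20, CAMK1G, TRIML2, DHRS3, ELF3, XAGE2, ITGB6, EGR2, RELN, SLC1A3, GRHL2 and TFAP2B, at 374 to 609-fold. ELF3 and GRHL2 are epithelial transcription factors, TFAP2B is a further AP-2 factor, ITGB6 is the beta subunit of an epithelial integrin that activates latent TGF-beta, and DHRS3 reduces retinal to retinol. GRHL2 was the only gene of these that every TB cell held above every EC cell, with 35.4, 276 and 775 CPM in the lowest, median and highest TB cell and at most 4.28 CPM in EC. The others were held by part of the cells, from 22 of 48 cells at 10 CPM or more for EGR2 to 42 for ITGB6 and TFAP2B. Their EC means were 0.0949 to 0.848 CPM, so the exact size of these ratios rests on low levels.

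The smallest ratios were those of ITGA10, SLC1A4, BCL6B, CLEC14A, APLN, ATP8A1, GDF3, VAX1, VAV3, TIE1, CRIP2 and APLNR. CLEC14A, TIE1, APLN and APLNR are endothelial surface molecules and their ligand, BCL6B is a transcriptional repressor known from endothelium, and GDF3 is a TGF-beta family ligand of pluripotent cells. None of the 12 reached 3 CPM in any TB cell of EQ. SLC1A4, a neutral amino acid transporter, was the exception in other libraries: TB 28 held it at 297 CPM in EQ-75%, where that cell passed, and its log2 ratio there was -3.60 in place of -10.07.

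**Figure D2:**
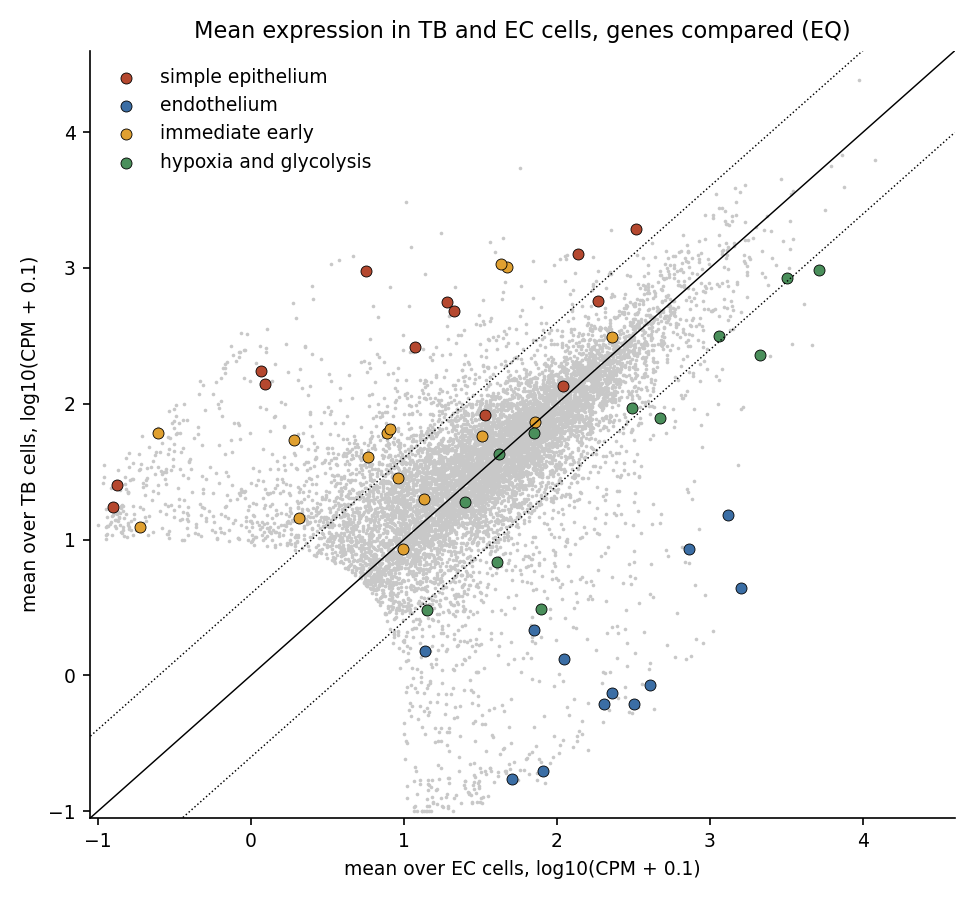
Mean level of the 10266 genes compared, EC on the horizontal and TB on the vertical axis, both log10(CPM + 0.1). Grey points are genes, coloured points are members of 4 lists, the solid line marks equal means and the dotted lines 4-fold; simple epithelium genes lie above the line of equal means, as do immediate early genes but for EGR3, endothelial genes lie below the lower dotted line, and hypoxia and glycolysis genes lie on or below the line of equal means.

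Among the transcription factors of the trophoblast lineage list, 11 of 17 were compared, 6 were at least 4-fold higher in TB and 0 lower, with a median log2 ratio of 3.73. HAND1, a BMP-responsive basic helix-loop-helix factor, was even across cells, at 41.6, 193 and 526 CPM in the lowest, median and highest, against at most 4.28 in EC. VGLL1, a cofactor of TEAD proteins, was at a mean of 118 CPM with 39 cells at 10 CPM or more, and TFAP2A was at 229 CPM with 45 cells. TFAP2A was 3.24-fold above EC and thus short of the fold used. MSX2 (39.1 CPM) and PPARG (25.4 CPM), the nuclear receptor needed for placental development, were held at 10 CPM or more by 30 and 14 cells. DLX5 was uneven, with 5 such cells.

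Other factors of early trophoblast were low or undetected. EOMES had no count in any TB cell, which allows up to 3 counts in all, or 0.0311 CPM. CDX2 (0.35 CPM), ASCL2 (0.37), ELF5 (3.43), TP63 (5.58) and GCM1 (5.43) were under 10 CPM in the mean. TP63 and GCM1 passed 10 CPM in 3 and 2 cells. GATA2 was at 38.2 CPM in TB and 65.7 in EC, where it is also a factor of endothelium.

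Of the cytotrophoblast list, 7 of 9 genes were compared, 6 were higher and 0 lower. LRP2 (megalin) was present in every TB cell, with 52.5 CPM in its lowest TB cell, a median of 463 and a highest value of 2157, 240-fold above EC in the mean. SPINT1, an inhibitor of membrane serine proteases, was at 96.8 CPM, XAGE2 at 91.8, PEG10, an imprinted retrotransposon-derived gene of placenta, at 68.7, and the growth factor receptors EGFR and MET at 66.2 and 34.3. They were held unevenly, EGFR by 31 cells and MET by 19 at 10 CPM or more. PAGE4 had no count, and ITGA6 was at 28.6 CPM against 41.1 in EC.

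Hormones and enzymes of the syncytiotrophoblast were low or undetected in the median TB cell, and several were held by a few cells. Of 20 measured genes, 6 had no count in TB (CGB, PSG6, PSG9, KISS1, CSH1 and GDF15), 12 were under 1 CPM in the mean and 3 were abundant enough to be compared, of which HSD3B1 and CRH were at least 4-fold higher in TB. The third, CYP11A1, which makes pregnenolone from cholesterol, had a mean within 4-fold of EC. It was at 10 CPM or more in 6 TB cells and highest in TB 46 at 173 CPM. In EC it was at 10 CPM or more in 1 cell, at 183 CPM, with a median of 0. TFPI2, a protease inhibitor known from placenta, reached 125 CPM in TB 11. CGA, the alpha subunit of the glycoprotein hormones, reached 13.7 CPM at most. HSD3B1, which makes progesterone from pregnenolone, was at 0 in 22 cells and had a median of 0.531 CPM, yet reached 1390 CPM in TB 16, 1051 in TB 45 and 807 in TB 13. It was at 10 CPM or more in 8 cells, against 1 cell in EC. CRH, the releasing hormone that placenta secretes, was at 10 CPM or more in 14 cells and highest in TB 11 at 735 CPM. Both HSD3B1 and CRH were at that level in 1 cell, and their log2 levels correlated at -0.11 over the 48 cells. Whether this overlap differs from that of unrelated genes was not tested.

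The extravillous list showed no common direction. Of 8 genes compared, 1 (DIO2) was higher and 3 (FN1, ITGA1 and ITGA5) were lower, 12.5% and 37.5% beside 11.3% and 8.08% over all genes, and LAIR2 and NOTUM had no count. FN1, fibronectin, was at 353 CPM in TB and 1418 in EC. MMP2, a gelatinase, was held by 24 cells at 10 CPM or more and had its highest value at 745 CPM. HTRA4 had like means, 52.9 CPM in TB and 44.8 in EC.

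Of the amnion list, 5 of the 7 measured genes were compared and all 5 were higher in TB. Besides VTCN1, they were ITGB6 (1.67, 158 and 1959 CPM in the lowest, median and highest cell), ISL1 (0, 36 and 395 CPM), TFAP2B (0.335, 83.4 and 538 CPM) and BNC1, a zinc-finger factor of stratified epithelium (17 cells at 10 CPM or more). ISL1, a LIM homeodomain factor, was thus high in some cells and absent in others, with 30 cells at 10 CPM or more and 6 at 0. POSTN had no count and WNT6 was at 4.02 CPM. GABRP and MUC16 of this list and HLA-G of the extravillous list were not analysed here.

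Of the genes of simple epithelium, 10 of 13 were at least 4-fold higher in TB and 0 lower, with a median log2 ratio of 4.53. KRT18 and KRT8, the paired keratins of simple epithelia, had lowest, median and highest values of 267, 1590 and 6069 CPM and of 86.9, 1068 and 4575 CPM. KRT19 was at 136, 658 and 6511 CPM, and every TB cell was above the 81.5 CPM of the highest EC cell. The adhesion molecules CDH1 (558 CPM), CDH3 (486), EPCAM (174) and the desmosomal PKP2 (260) were at least 10-fold above EC in the mean, as was the splicing factor ESRP1 (140). Desmoplakin (DSP), plakoglobin (JUP) and CLDN7 were within 4-fold of EC. EC held KRT8 and KRT18 as well, at 137 and 327 CPM, and both have many processed copies in the genome.

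Genes listed as stroma split. LUM, COL3A1, DCN, COL1A1 and TAGLN were at least 4-fold higher in TB, while FN1, THY1, ZEB1 and ZEB2 were lower. LUM, a small leucine-rich proteoglycan of collagen matrix, had 124 CPM in its lowest TB cell, 2438 in the median and 8864 in the highest, 297-fold above EC in the mean. COL3A1 was at 75.4, 696 and 1726 CPM. The repressors of epithelial genes ZEB1 and ZEB2 did not pass 5.47 and 12.9 CPM in any TB cell, where EC had means of 95.4 and 207 CPM. The median log2 ratio of the 14 genes compared was -0.37.

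Among pluripotency genes, 10 of 15 measured were compared, with 1 higher and 1 lower, which is near the shares over all genes (11.3% and 8.08%). L1TD1, an RNA-binding protein of pluripotent cells, was present in every TB cell (15.4, 421 and 1198 CPM) and 11.5-fold above EC. LIN28A was at 287 CPM in TB and 279 in EC, and SALL4 at 152 and 232. SOX2 had a count in 2 cells, with 1 at 10 CPM or more, and UTF1, LEFTY2 and NODAL had no count. POU5F1 (13.4 CPM) and NANOG (34 CPM) have processed copies close in sequence, and their low levels are uncertain for that reason. Genes of the germ layers were at the limit of detection: 7 of 11 measured mesoderm and endoderm genes and 3 of 6 neuroectoderm genes had no count, and 10 and 6 of them were under 1 CPM. SOX17, an endoderm factor that endothelium also uses, had 3 counts in TB against 2619 in EC, a ratio of EC to TB of 1076 with an exact 95% interval of 368 to 5222 at equal total counts.

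Of the endothelial list, 12 of 15 genes were compared and all 12 were lower in TB. KDR, a VEGF receptor, was at 0.394 to 27.4 CPM in TB cells and 51.3 to 3318 in EC cells. The highest TB value was that of TB 40, the shallowest passing library of EQ, and the same cell held KDR at 1.99 CPM in EQ-75%. PECAM1 was at 0.571 to 77.4 CPM in TB with a count in all 48 cells and at 28.7 to 4032 CPM in EC. CDH5, the cadherin of endothelial junctions, reached 8.21 CPM and CLDN5 had no count. The list's summed level was 3.43 to 134 CPM in TB cells and 291 to 8947 in EC cells, and its mean log2 level over TB cells correlated with the log10 total count at -0.54 (n = 48 cells, which share their libraries' depth with both measures). The part of other libraries in these values was not tested.

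Targets of the culture signals gave mixed values. Of the BMP response list, 10 of 12 measured genes were compared. HAND1, MSX2 and ID4 were higher (30%) and MSX1 was lower (10%), beside 11.3% and 8.08% over all genes. The median log2 ratio of the list was 0.16. ID1 was at 6.48 CPM in TB and 6.97 in EC, and ID3 at 47.2 and 170. BMP4 itself was at 78.1 CPM with a highest cell of 1049. Of the activin and TGF-beta list, LEFTY2 and NODAL had no count, while TGFBI (390 CPM, 11.8-fold above EC) and CTGF (248 CPM, 304-fold), a matricellular protein also induced by YAP, were higher. PMEPA1 was within 4-fold.

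Immediate early genes, which are switched on within minutes of a stimulus or of handling, were higher in TB in 9 of 15 genes and lower in 0, with a median log2 ratio of 2.88. FOS had 41.9, 1003 and 3846 CPM in the lowest, median and highest TB cell, and EGR1 had 79.4, 980 and 2379. No TB cell lacked them, and the EC medians were 5.19 and 3.50 CPM, although single EC cells reached 946 and 1042. FOSB, JUN, JUNB, ATF3, ZFP36, EGR2 and MYC were higher as well, and KLF6 and BTG2 were not. Hypoxia and glycolysis genes had the opposite tendency, with 6 of 12 lower in TB, 0 higher and a median log2 ratio of -2.09. Enolase ENO1 was at 967 CPM in TB and 5188 in EC, lactate dehydrogenase LDHA at 228 and 2135, and the glucose transporter SLC2A1 at 78.3 and 468. The list's level was below that of every EC cell in 38 of 48 TB cells. The ATF4 list had 1 gene higher (PHGDH, serine synthesis, 187 CPM against 39.2) and 3 lower (TRIB3, CHAC1 and CTH) of 9. These are 11.1% and 33.3%, beside 11.3% and 8.08% over all genes.

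Of the antigen presentation genes, B2M was at 262 CPM in TB and 904 in EC and HLA-E was 4.84-fold lower in TB, whereas HLA-C had the higher mean in TB, 85.0 CPM against 27.7. HLA-B was at 12.5 CPM and at 10 CPM or more in 12 cells. The class I genes share sequence, so reads can be divided among them.

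TB cells differed from each other in many of these genes. To rank spread apart from level, the CV squared of each gene was set against a lowess trend over the mean, for the 8615 genes of at least 10 CPM, and the 100 largest residuals (1.16%) were taken. These 100 genes were chosen by their spread in EQ, so the residuals are a description. The top 12 were ACTC1, NABP1, MTRNR2L12, POR, LRRN3, TSC22D3, STMN2, MTRNR2L8, STRA6, ANK2, HSD3B1 and CDC25B. None of the 5 markers was among the 100, and the highest of them, TFAP2C, was at rank 404.

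The place of TB 7 and TB 9 in this list was large. TB 7 held the highest value of 27 of the 100 genes and TB 9 of 7, while 26 cells in all held the highest value of at least 1. MTRNR2L12, TSC22D3, MTRNR2L8, ANK2 and CDC25B peaked in TB 7, and TSC22D3, a glucocorticoid-induced leucine zipper gene, was at 884 CPM there and at most 7.47 CPM in any other TB cell. Without TB 7 and TB 9, 68 of the 100 genes stayed among the top 100, and ACTC1, NABP1, POR, LRRN3, STMN2, STRA6 and HSD3B1 were then the top 7.

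ACTC1, the cardiac alpha actin, had the largest residual with and without these cells. It was present in every TB cell, at 12.3 CPM in TB 8, 460 in the median and 12651 in TB 16, and EC cells were at 17.1 CPM at most. TB 16 was also the highest cell of EQ for KRT19, HSD3B1 and KRT7. Its EQ library had 22.9% of the counts in its 50 most abundant genes, the highest share of the 48 cells, against 17.4% in EQ-75%. LUM in this cell was at 1897 CPM in EQ and 4982 in EQ-75%. In EQ-75% the same cell had ACTC1 at 8651, HSD3B1 at 977 and KRT7 at 132 CPM, and TB 20 was then highest for ACTC1 (10276 CPM) and TB 45 for HSD3B1 (1021 CPM). NABP1, which binds single-stranded DNA, reached 5229 CPM in TB 33 with a median of 66.6. POR, the reductase that passes electrons to cytochrome P450 enzymes, and STRA6, the receptor for retinol-binding protein, both peaked in TB 40, at 1885 and 1313 CPM, with medians of 4.17 and 0.538 CPM. TB 40 was the shallowest passing library of EQ, with 365570 counts, and held 2009134 in EQ-75%. The means over passing TB cells were lower in EQ-75%, at 34.8 in place of 58.0 CPM for POR and 21.9 in place of 42.5 for STRA6. STMN2, a tubulin-binding protein best known from neurons, was at 10 CPM or more in 13 cells and at 2130 CPM in TB 37.

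Of the listed genes, those among the 100 were HSD3B1 (syncytiotrophoblast), ITGB6 (amnion), KRT19 (epithelium), LUM, DCN and ACTA2 (stroma), CENPF, TOP2A and BIRC5 (G2/M) and ENO1 (glycolysis). DCN, decorin, is an example of a split gene: 37 cells were at 10 CPM or more, TB 37 reached 2513 CPM and TB 1 was at 1.01 CPM. LUM and DCN, related proteoglycans, did not follow each other over cells (r = 0.03, n = 48, on the log2 scale of the same libraries).

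The least variable genes of at least 100 CPM were RPL5, RPL41, RPL23A, RP4-706A16.3 and EEF1G, with CVs of 0.224 to 0.264. RPL5 was between 1087 and 4437 CPM in all 48 cells. For comparison, the CV of VTCN1 was 0.41 and that of TPM1 was 0.348, those of TFAP2C and ENPEP were 0.976 and 0.969, and that of KRT7 was 1.76.

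**Figure D3:**
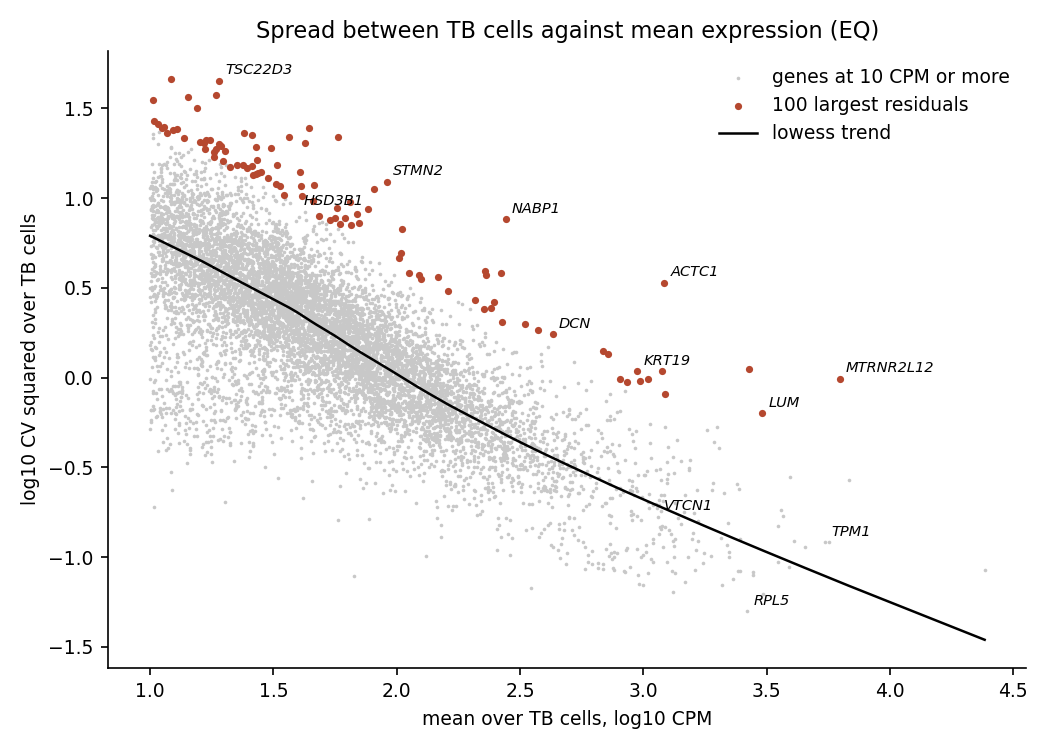
Spread against level for 8615 genes over 48 TB cells of EQ, with log10 mean CPM on the horizontal and log10 CV squared on the vertical axis. Grey points are genes, red points the 100 largest residuals and the line the lowess trend; ACTC1 and NABP1 lie far above the line, VTCN1 and TPM1 lie near it, and RPL5 lies below it.

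Few of the lists varied as a unit. The median correlation of pairs of genes over the 48 cells was 0.02 for all 8615 genes, and it was 0.34 within the S phase list (34 genes), 0.29 within the G2/M list (45 genes) and 0.19 within the immediate early list (14 genes). It was 0.14 within the 5 markers, 0.02 within the lineage factors and 0.05 within simple epithelium. Pairs in a list share libraries and depth, and these values are descriptions. They were 0.35, 0.30 and 0.21 for the 3 first-named lists without TB 7 and TB 9. Single pairs varied together, namely KRT8 and KRT18 (r = 0.72), FOS and EGR1 (0.64), and ENO1 and LDHA (0.45), whereas KRT18 and KRT19 did not (0.05). VTCN1 and GATA3 were at 0.37, and VTCN1 and ISL1 at 0.07.

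A few cells stood well above the rest in cell cycle genes. The G2/M list, genes of mitosis such as TOP2A and CENPF, had a mean log2 level of 2.80 in the median cell, and 6 cells (TB 1, TB 10, TB 19, TB 29, TB 34 and TB 43) were at 5.52 to 7.28, with the next cell at 4.63. The S phase list, genes of DNA replication, had a median of 2.42, and 5 cells (TB 19, TB 29, TB 30, TB 39 and TB 43) were at 5.77 to 6.80, with the next at 4.59. TB 19, TB 29 and TB 43 were in both groups. Over the 48 cells both lists correlated at 0.775, and at 0.80 over the 50 cells of EQ-75%. CDC6, a licensing factor of replication origins, had a median of 4.84 CPM and was at 769 CPM in TB 19, and MKI67 had a median of 0.657 CPM and was at 603 CPM in TB 43.

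Against EC, 11 of the 35 S phase genes compared were higher in TB (among them MCM2, MCM4, MCM5, CDC6 and CDC45) and 0 lower. The share higher was 31.4%, beside 11.3% over all genes. Of 49 G2/M genes, 0 were higher and 3 lower (BUB1, KIF2C and NEK2), 0% and 6.12% beside 11.3% and 8.08% over all genes. Some of these means rest on few cells: CDC45 was at 10 CPM or more in 7 TB cells, MCM2 in 12 and CDC6 in 18. The level of the syncytiotrophoblast list correlated with that of the G2/M list at -0.43 over the 48 TB cells, the largest negative value among the pairs of lists that share no gene. With TB 7 and TB 9 left out it was -0.44, and over the 50 cells of EQ-75% it was -0.38. The syncytiotrophoblast level was near the floor, with a median of 0.476 and 2 of its 20 measured genes at a mean of 10 CPM or more. Along the main axis of a principal component analysis, which held 5.39% of the variance of the 8615 genes, the correlation was 0.50 with the G2/M level, -0.65 with the MTRNR2L share and 0.46 with the log10 total count.

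**Figure D4:**
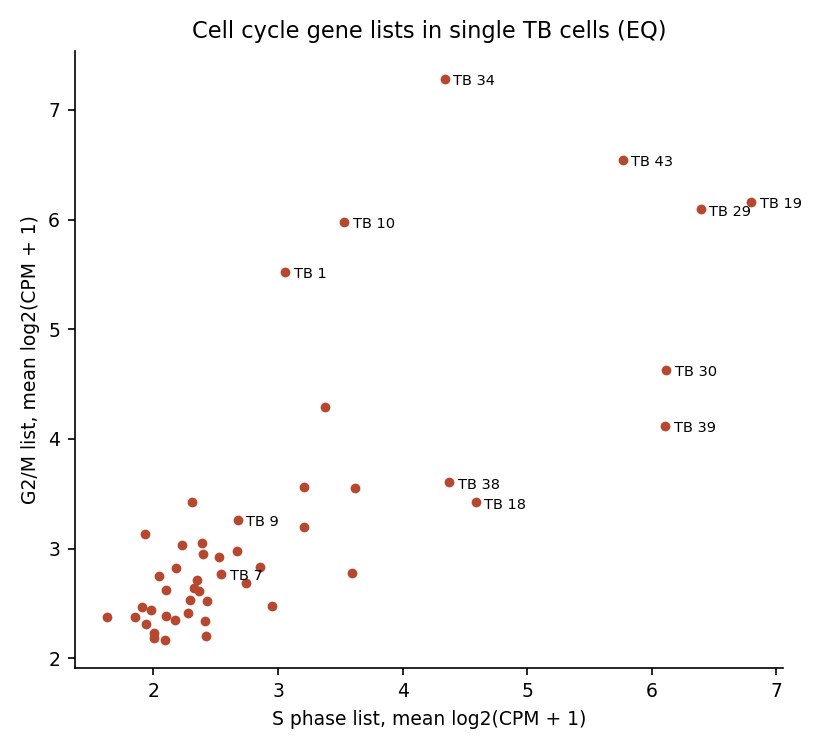
Mean log2(CPM + 1) of the S phase list (horizontal) and of the G2/M list (vertical) in each of the 48 TB cells of EQ. Each point is a cell, and cells at high levels and TB 7 and TB 9 are named; 6 cells lie above 5.5 on the G2/M list and 3 of these are also among the 5 highest on the S phase list.

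The differences between cells were found again in other libraries of the same cDNA. For each of the 8615 genes, the log2 levels of the 47 cells that passed in both EQ and EQ-75% were correlated, and the median over genes was 0.970, with 5% of the genes under 0.876 and 133 genes under 0.8. The median was 0.979 for EQ with EQ-Vary (46 cells), for which a separate library preparation is not stated. For the 100 most variable genes of EQ it was 0.976 and the lowest was 0.825. HSD3B1, CRH and KRT7 had 0.978, 0.970 and 0.971. The endothelial PECAM1 was lower, at 0.779 with EQ-75% and 0.511 with EQ-Vary. These correlations show how well the libraries repeat a cell's cDNA, and the capture and amplification of the cell were made only once.

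EQ-75% added 3 cells that had not passed in EQ. TB 28 lay within the range of the other cells for VTCN1, at 1087 CPM. TB 4 had the highest KRT18 of the experiment, 5033 CPM, and the lowest GRHL2, 27 CPM. TB 48 had the lowest VTCN1 (9.21 CPM), TFAP2C (4.6 CPM) and TPM1 (1118 CPM) of the 50 cells. Its ENPEP (2.76 CPM) and LUM (294 CPM) were far under the medians of 218 and 2804 CPM. KRT7 was at 0 (median 3.14 CPM) and GATA3 at 103 CPM (median 186). In contrast, CDH1 was at 537 CPM, GRHL2 at 268 CPM and HAND1 at 119 CPM, near the medians of 527, 249 and 138 CPM. A cell with epithelial genes and hardly any VTCN1, TFAP2C or ENPEP was thus present in EQ-75% and left out of the main set by its depth in EQ.

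**Figure D5:**
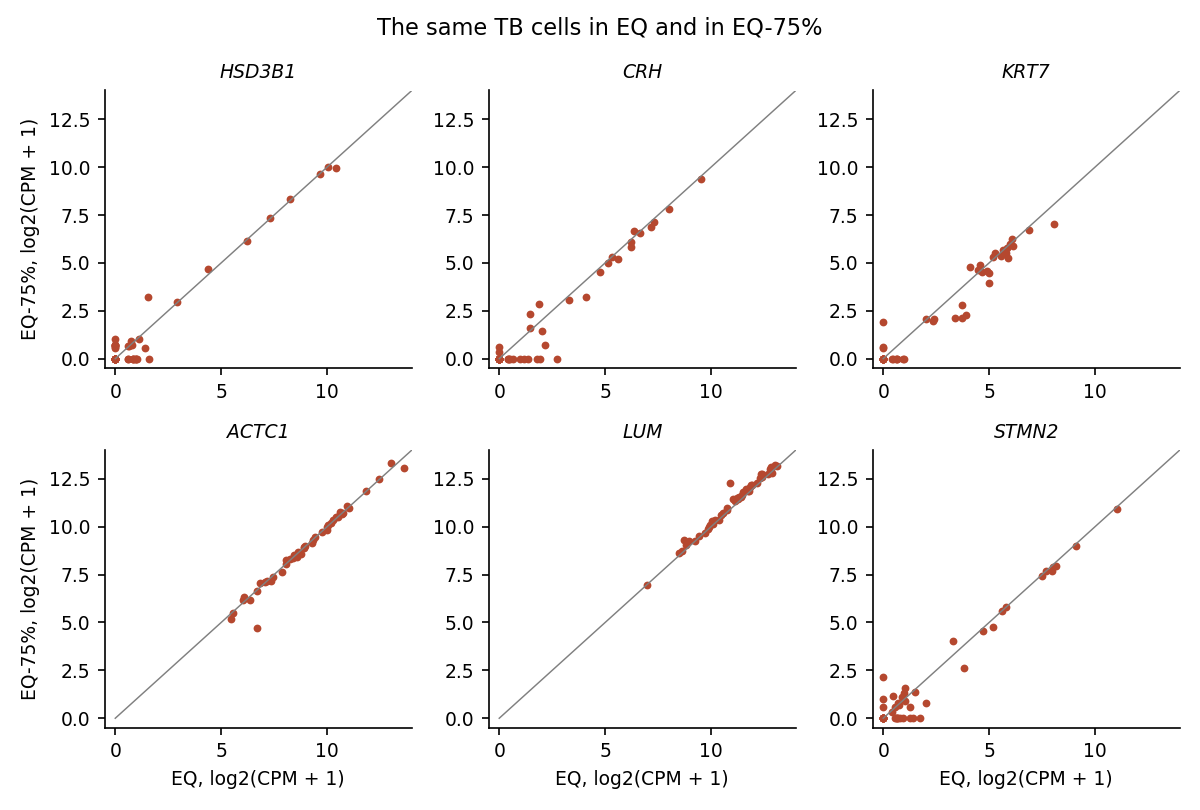
Level of 6 genes in the 47 TB cells that passed in both EQ (horizontal) and EQ-75% (vertical), as log2(CPM + 1). Each point is a cell and the line marks equal levels; cells high in HSD3B1, CRH, KRT7, ACTC1, LUM or STMN2 in EQ were high in EQ-75%, and the points scatter near 0.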

How the data were processed

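Stored cDNA of 96 cells, made on the Fluidigm C1 system, was sequenced in EQ, EQ-Vary and EQ-75%. The deposited values are expected counts, which the authors made by mapping reads with Bowtie 1.2.3 to protein-coding genes of GRCh38 and estimating them with RSEM 1.2.31, without normalization (CASAVA 1.8.2 is also named in the submitters' notes). A read that matches several genes is shared among them in that estimate. Of the sample columns, 0 were left unused.

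Groups and cell numbers were taken from the labels. Cells were kept by the study's limits. Per the methods, doublets and dead cells seen in images were removed before these experiments, and no caller of doublets was run here. The unEQ libraries were not analysed here. Expected counts were rounded and scaled to CPM. Ratios are of mean CPM, for genes of at least 5 CPM over both types, and a mean of 0 was set to a floor of 3 counts over the group. With 1 sample a type there is no test, and a ratio of at least 4 was the mark. Intervals and floors cover counting error only. List levels are means of log2(CPM + 1). Variation used genes of at least 10 CPM and a lowess trend (fraction 0.3). The ratio, variance and thinning steps were tested on simulated data. A total of 20 gene lists was used, and members matched by symbol or, for TBXT, CCN2 and CGB3 (T, CTGF and CGB in the tables), by Ensembl identifier, and 24 listed genes were not analysed here.

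The TB cells, the gene lists and the comparisons were chosen with earlier results of these data known. The genes named were the 5 markers, the 4 most abundant of each list, the 12 largest and 12 smallest ratios at 50 CPM or more, the 12 most variable, the 5 least variable at 100 CPM or more, the 10 highest per kb and list members at 0. Other list members and genes were named after their values were seen. The level of 10 CPM for a cell and the leaving out of TB 7 and TB 9 were also chosen after seeing the data. Gene coordinates and transcript lengths are from GENCODE v44 on GRCh38, matched by Ensembl identifier, and upstream sequences are from RefSeq on GRCh38, matched by symbol with the first listed window (TFAP2C and KRT7 had none). Python 3.11.15 was used with numpy, pandas, scipy, statsmodels and matplotlib.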

Additional observations from a re-analysis of the deposited data

How the results depend on the processing

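Of 139 recomputed values of the counts, list levels, marker levels and correlations, 131 stayed near the values given, within 1.5 times for counts and within the spread for the others, and 8 moved. With a minimum mean of 1 CPM in place of 5, 1834 genes were higher and 1250 lower, and with no minimum 2457 and 1718, since more genes were then compared (12351 and 17492). Of the 100 most variable genes, 61 were shared with those of the EQ-75% libraries, 64 with those under median-of-ratios size factors and 15 with those ranked by the variance of log2(CPM + 1), and the cause was not tested. In an alternative added after seeing the data, the EQ-75% libraries of the cells that passed in both gave 79. The median correlation of EQ with EQ-75% was 0.904 with every cell thinned to 250000 counts. The split of calls changed under the median in place of the mean, with 1568 higher and 589 lower, of which 593 and 409 were among the 1156 and 830. The median log2 ratio of all genes was -0.03 with median-of-ratios size factors, against 0.04. All 80 list levels and all 25 marker levels stayed within 1 SD between cells, and these make up most of the 131. That mark is wide for uneven genes and says little of their stability. KRT7, with a mean of 25.3 and an SD of 44.6 CPM, stayed within it at a median of 6.94 CPM. Of 580 log2 ratios of named genes, 47 moved, 25 of them with the cells that did not pass kept, where large ratios shrank (VTCN1 from 8.29 to 5.57, ITGA10 from -10.44 to -4.96). The sign changed in 13, none of them of a gene past 4-fold, and by most for ANK2 (0.18 to -2.80) and CDC25B (0.43 to -1.11) without TB 7 and TB 9 and for STRA6 (0.10 to -1.31 in EQ-Vary). The log2 ratio of SLC1A4 went from -10.07 to -3.60 in EQ-75% and that of TSC22D3 from -2.02 to -7.03 without TB 7 and TB 9. Without TB 7 and TB 9, 1152 genes were higher and 845 lower. No paired analysis was possible because TB and EC share no cells and no result comes from a test; the same TB cells were set side by side across experiments only by correlation. Depth limits what can be said of genes of a few CPM in a single cell.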
